A study of Mus musculus with 6 samples.

Results

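The genes described here are 10 genes of matrix proteolysis, 3 tissue inhibitors of metalloproteinases (Timp1, Timp2 and Timp3) and 7 matrix metalloproteinases (Mmp2, Mmp3, Mmp9, Mmp10, Mmp13, Mmp14 and Mmp19). They were chosen by symbol, and all 10 were found among the 55414 Ensembl gene identifiers of the deposited count table. RNA was sequenced from C2C12 cells, a line of mouse myoblasts labelled WT for genotype and grown in medium with fetal bovine serum. One group of 3 libraries came from cells given the control siRNA (siRNA-NC, called siControl here) and the other of 3 from cells given an siRNA against Usf2 (siRNA-USF2, called siUsf2 here), both transfected with lipofectamine. The design sets knockdown of USF2, a transcription factor that binds E-box sequences in DNA, against the control siRNA. The labels do not say whether replicates were separate cultures, so p-values measure only the spread between these libraries, which may be technical.

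Matrix metalloproteinases are zinc-dependent enzymes that cut collagens, laminins and other proteins of the extracellular matrix. They are made as inactive precursors, and TIMP proteins bind the active enzymes and block them. In muscle, MMP2 and MMP9 are known for remodelling the basement membrane as myoblasts migrate and muscle regenerates, and MMP14, an enzyme of the cell surface, activates the MMP2 precursor in a complex with TIMP2.

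Total counts were 14790997 to 17715250 in 5 libraries and 3414565 in the library labelled siUsf2 3. It also held 0.974% of its counts in annotated pseudogenes, against 14.0% to 15.3% in the others. Usf2, the targeted gene, was at 26.2, 31.2 and 23.0 CPM (counts scaled to a library total of 1000000) in siControl 1 to 3 and at 17.1 and 15.3 CPM in siUsf2 1 and 2. In the library labelled siUsf2 3 Usf2 was at 30.8 CPM, within the siControl range and against its label. The fitted log2 difference in Usf2 was -0.74 (edgeR adjusted p = 6.43e-04, SE 0.14) without that library and -0.40 (edgeR adjusted p = 0.702, SE 0.28) with it. That library is therefore shown apart: fold changes come first from the 5 other libraries (siUsf2 1 and 2 against siControl 1 to 3) and then from all 6. Its Usf2 level was part of the reason, so the Usf2 p-value without it is no independent test of the knockdown. With few counts in pseudogenes, the other genes make up a larger share of the total in the library labelled siUsf2 3. CPM was not corrected for this, so where that library is placed against the siControl range below, small differences are uncertain. All 8 myoblast markers looked for had counts in every library. Of 8 macrophage and 6 neutrophil markers, cell types known for making MMP9, summed levels were 20.9 to 26.2 CPM, most of it from Cd14, and 0.135 to 0.335 CPM. Of these markers Adgre1, C1qa, S100a9, Ly6g and Csf3r were at 0 in all 6 libraries, while Cd68 reached 2.25 CPM, Lyz2 1.15 CPM, Csf1r 0.687 CPM and Ptprc 0.437 CPM at most. Fcgr1, S100a8, Mpo and Elane had counts in some libraries, at up to 0.335 CPM.

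The stretches of DNA just before the transcription starts are shown for Timp3 and Mmp13, the 2 members whose level changed, and for Mmp3 and Mmp10, which lie near Mmp13 on chromosome 9. They are from RefSeq on GRCm38.p6, written 5′ to 3′ on the plus strand, which is the strand of these 4 genes. The Timp3 stretch is chr10:86300162-86300371, with capitals on E-box letters (CANNTG).

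Timp3: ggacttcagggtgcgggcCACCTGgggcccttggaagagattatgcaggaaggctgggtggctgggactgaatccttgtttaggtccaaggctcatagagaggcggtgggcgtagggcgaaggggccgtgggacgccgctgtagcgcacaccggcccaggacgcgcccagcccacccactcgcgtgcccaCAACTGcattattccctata

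It ends just before the GENCODE start. The 3 metalloproteinase stretches each hold the 100 bases before the RefSeq start: chr9:7272414-7272513 for Mmp13, chr9:7445722-7445821 for Mmp3 and chr9:7502242-7502341 for Mmp10. Capitals mark matches to the AP-1 motif (TGANTCA) and the TATA box (TATAAA), which both occur once in each.

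Mmp13: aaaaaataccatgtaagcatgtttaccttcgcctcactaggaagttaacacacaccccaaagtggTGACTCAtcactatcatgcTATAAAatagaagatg
Mmp3: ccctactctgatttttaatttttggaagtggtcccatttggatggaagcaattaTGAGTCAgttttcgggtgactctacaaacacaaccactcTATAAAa
Mmp10: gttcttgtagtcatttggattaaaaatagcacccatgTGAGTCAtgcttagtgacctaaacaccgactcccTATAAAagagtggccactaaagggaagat

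RefSeq windows of 300 bases (250 before to 50 after the start) were at hand for 7 members, and those of Mmp2, Mmp9 and Mmp19 were not used here. Both strands of each window were searched. The letters CACGTG, the E-box best known for USF factors, were found in none of the 7, against 7.15% of 32851 windows of all genes. The looser CANNTG, which includes CACGTG, matched in 6 of the 7, Timp1 being the exception, and in 72.3% of all windows. TGANTCA matched in the windows of Mmp3, Mmp10 and Mmp13 and in 7.81% of all windows, and TATAAA in the same 3 members and in 13.6% of all. These are matches of letters in a short window and say nothing of whether a factor binds.

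Among the inhibitors, Timp3 rose and the other 2 did not pass the test. Timp3 encodes an inhibitor that stays bound to the extracellular matrix and that also blocks several ADAM and ADAMTS proteases. The gene (ENSMUSG00000020044) lies on chromosome 10 at 86300372 to 86349506 (GRCm38, plus strand). Its level was 73.3, 60.1 and 79.9 CPM in siControl 1 to 3, and 157 and 158 CPM in siUsf2 1 and 2. The 2 knockdown libraries differed from each other by less than their counting error (95% Poisson intervals of 151 to 163 and 152 to 164 CPM), and both lay far above every siControl library. The fitted change was a 2.19-fold rise, 1.13 on the log2 scale (edgeR adjusted p = 3.88e-09, SE 0.10). In bulk RNA, a change in the share of cells that express a gene and a change in RNA per cell cannot be told apart. Beside this rise, 2 of 7 fibroblast markers, Cd34 and Ly6a, were called higher in the 5 libraries (log2 fold changes 0.54 and 0.47). Of all genes tested there, 4.97% rose. Pdgfra was near 0 (0.05, edgeR adjusted p = 0.804). Col15a1 had a lower mean, 0.394 against 0.845 CPM, but did not pass (edgeR adjusted p = 0.319), and Thy1 was not tested. The summed level of the fibroblast markers was 450 to 477 CPM in siControl and 656 and 585 CPM in siUsf2 1 and 2. It was 601 CPM in the library labelled siUsf2 3. Nearly all of it was Ly6a, Cd34 and Pdgfra. Dpt and Pi16 were at most 3.51 CPM and Thy1 at most 0.443 CPM. The myoblast markers summed to 3148 to 3577 CPM in siControl, 2485 and 2648 CPM in siUsf2 1 and 2, and 3074 CPM in the library labelled siUsf2 3. They did not move alike in the 5 libraries: Des, Myod1, Cdh15, Ncam1 and Chrna1 were called lower. Myf5 was called higher (log2 fold change 0.37, edgeR adjusted p = 0.0325), and Pax7 (-0.03) and Vcam1 (0.01) stayed near 0. The part of the fibroblast and myoblast markers in the Timp3 result was not tested.

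In the library labelled siUsf2 3, Timp3 stood at 96.4 CPM (95% Poisson interval 86.2 to 107), above the siControl libraries and below siUsf2 1 and 2. The low pseudogene share of that library raises the CPM of other genes, which the interval does not cover. The placing above siControl is therefore uncertain. With all 6 libraries the log2 fold change was 0.92 (SE 0.24) and did not pass (edgeR adjusted p = 0.275, range 0.0488 to 0.893 over the other settings with all 6 libraries, the lowest from DESeq2). In 1733 bases, 21.3% of its exonic length, Timp3 overlaps exons of Syn3 on the opposite strand. The strand setting of the counting is not given, so reads in that overlap cannot be assigned, but Syn3 itself had 0 to 7 counts per library.

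Timp2, on chromosome 11 at 118301069 to 118355740, encodes the inhibitor that takes part in MMP2 activation. It was at 1403, 1360 and 1439 CPM in siControl 1 to 3, 1300 and 1261 CPM in siUsf2 1 and 2, and 1298 CPM in the library labelled siUsf2 3. The siUsf2 libraries all lay below the siControl range, by a small amount: the log2 fold change was -0.14 (SE 0.09) in the 5 libraries and did not pass (edgeR adjusted p = 0.312), nor did -0.16 (SE 0.07) in all 6 (edgeR adjusted p = 0.539). Timp1 encodes a soluble, inducible inhibitor, and its gene sits within Syn1 on chromosome X, at 20870166 to 20874735, with no shared exonic base. It was at 96.0, 110 and 96.5 CPM in siControl 1 to 3 and 112 and 107 CPM in siUsf2 1 and 2, groups that overlapped (log2 fold change 0.11, edgeR adjusted p = 0.507, SE 0.09). At 151 CPM, the library labelled siUsf2 3 stood above the other 5, and with it the difference was 0.25 (edgeR adjusted p = 0.609, SE 0.14).

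**Figure D1:**
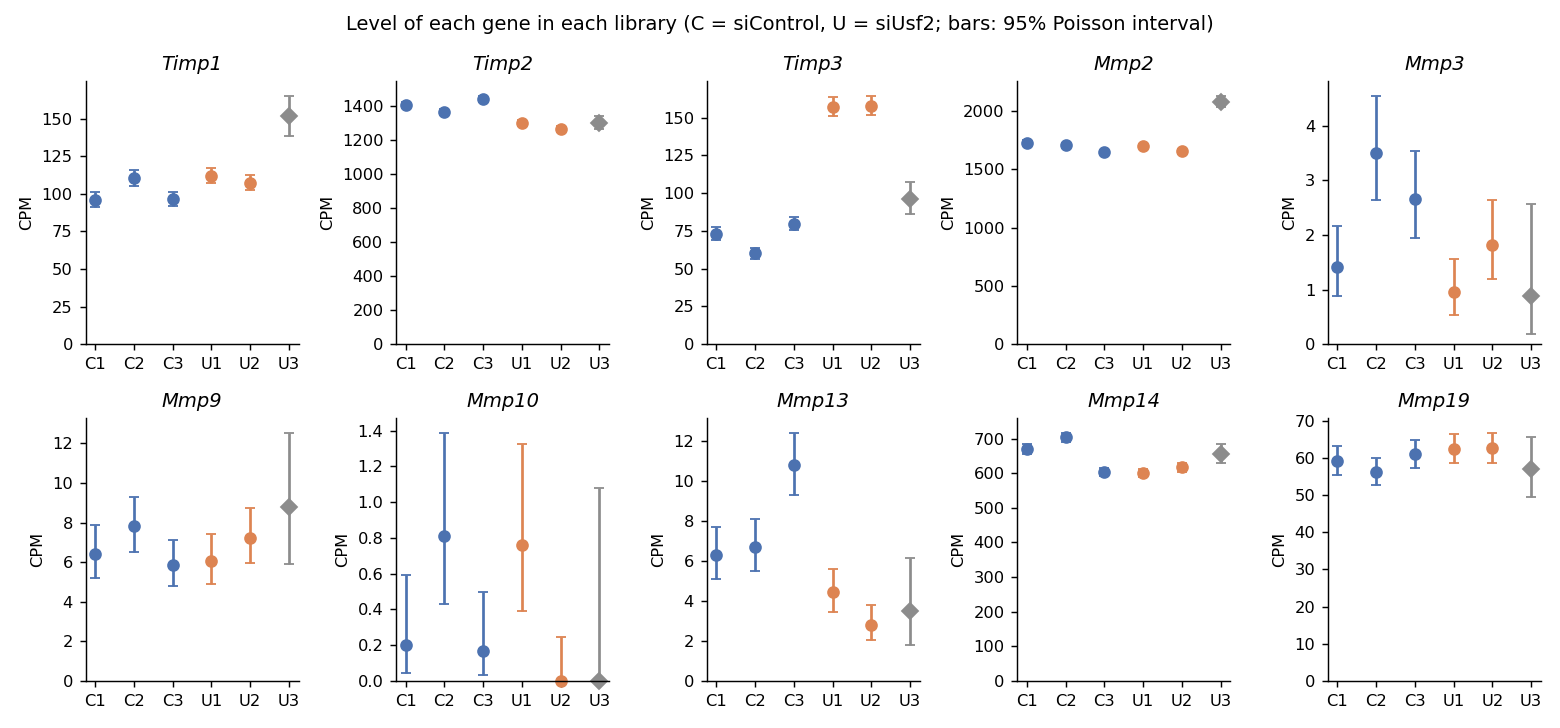
Level of each of the 10 genes in CPM in each library, 1 panel per gene with its own axis from 0, with siControl 1 to 3 in blue, siUsf2 1 and 2 in orange and the library labelled siUsf2 3 as a grey diamond. Bars are 95% Poisson intervals and cover counting error only; Timp3 stands at 157 and 158 CPM in siUsf2 1 and 2 against 60.1 to 79.9 CPM in siControl, while Mmp13 falls below the siControl range.

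Among the enzymes, Mmp13 fell and the other 6 did not pass. Mmp13 encodes a collagenase, an enzyme that cuts fibrillar collagen, and its gene (ENSMUSG00000050578) lies on chromosome 9 at 7272514 to 7283331 (plus strand). Its level was low throughout: 6.29, 6.68 and 10.8 CPM in siControl 1 to 3 (93, 107 and 191 counts), and 4.43 and 2.81 CPM in siUsf2 1 and 2 (70 and 42 counts). Both siUsf2 libraries lay under the lowest siControl library, and siControl 3 stood above the other 2 controls. The log2 fold change was -1.15 (edgeR adjusted p = 0.00546, SE 0.27). Without siUsf2 2 the call ended, at a log2 fold change of -0.87 (edgeR adjusted p = 0.0622). Mmp13 in the library labelled siUsf2 3 also lay below the siControl range, at 3.51 CPM from 12 counts (95% Poisson interval 1.82 to 6.14 CPM). With all 6 libraries the log2 fold change was nearly the same, -1.17 (SE 0.33), but did not pass (edgeR adjusted p = 0.288).

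Mmp3 and Mmp10 encode the stromelysins, enzymes of broad specificity that can also activate other MMP precursors. Mmp3 was at 1.42, 3.50 and 2.65 CPM in siControl 1 to 3 and at 0.948 and 1.81 CPM in siUsf2 1 and 2, from 15 to 56 counts per library. Only 3 counts (0.879 CPM) were in the library labelled siUsf2 3. The groups overlapped, and the log2 fold change of -0.89 (SE 0.42) did not pass in the 5 libraries (edgeR adjusted p = 0.183), nor did -1.001 (SE 0.48) in all 6 (edgeR adjusted p = 0.558). A pseudogene of 283 bases on chromosome X, Gm15242, matches Mmp3 at 96.0% identity and held 5 to 16 counts in those 5 libraries and 0 in the library labelled siUsf2 3. Reads could be split between them, so the Mmp3 values are uncertain. It was the one pseudogene of 13493 that matched any member.

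Mmp10 had 3, 13 and 3 counts in the siControl libraries, against 12, 0 and 0 in siUsf2 1 to 3. A count of 0 allows up to 0.201 CPM in siUsf2 2 and 0.879 CPM in the library labelled siUsf2 3 by the limit of 3 counts, which is one-sided. The two-sided 95% Poisson intervals drawn in the plot of CPM by library reach 0.247 and 1.08 CPM. A difference was not detectable at this depth (log2 fold change -0.04, edgeR adjusted p = 0.988, SE 0.95 in the 5 libraries), and the gene was below the filter for low counts in the fit of all 6.

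Mmp13, Mmp3 and Mmp10 belong to a cluster of 10 MMP genes on chromosome 9, from 7272514 to 7699585 (427 kb). Within it these 3 carried most of the counts: Mmp12, Mmp1b, Mmp1a and Mmp7 were at 0 in all 6 libraries, and Mmp8, Mmp27 and Mmp20 had at most 6 counts in any library. Mmp13 had the most counts of the cluster in every library, and whether its change differed from that of Mmp3 was not tested.

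The gelatinases, encoded by Mmp2 (chromosome 8, 92827291 to 92853420) and Mmp9 (chromosome 2, 164940780 to 164955850), cut denatured collagen and basement membrane collagen. Mmp2 was the most abundant member, at 1729, 1706 and 1650 CPM in siControl 1 to 3 and 1701 and 1656 CPM in siUsf2 1 and 2. The 5 libraries lay within a narrow band, and the log2 fold change was -0.03 (edgeR adjusted p = 0.886, SE 0.09). The library labelled siUsf2 3 stood above them at 2083 CPM, which turned the sign to 0.06 (edgeR adjusted p = 0.876, SE 0.10) with all 6 libraries. The low pseudogene share of that library raises the CPM of other genes, so the size of this Mmp2 excess is uncertain. Mmp9 was at 6.42, 7.81 and 5.87 CPM in siControl 1 to 3, 6.07 and 7.23 CPM in siUsf2 1 and 2, and 8.79 CPM in the library labelled siUsf2 3, where 30 counts give a 95% Poisson interval of 5.93 to 12.5 CPM. No separation of the groups was seen for Mmp9 (log2 fold change -0.02, edgeR adjusted p = 0.967, SE 0.22, and 0.09, edgeR adjusted p = 0.911, SE 0.22 with all 6 libraries).

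Mmp14, the membrane-type enzyme (chromosome 14, 54431612 to 54445364), was at 670, 704 and 604 CPM in siControl 1 to 3 and 601 and 617 CPM in siUsf2 1 and 2, with 656 CPM in the library labelled siUsf2 3. These ranges overlapped, and the log2 fold change of -0.13 (SE 0.09) did not pass (edgeR adjusted p = 0.383), nor did -0.11 (SE 0.08) with all 6 libraries (edgeR adjusted p = 0.712). Mmp19, a secreted enzyme that acts on basement membrane proteins (chromosome 10, 128790910 to 128800824), was at 59.2, 56.3 and 61.0 CPM in siControl and 62.5 and 62.7 CPM in siUsf2 1 and 2. The library labelled siUsf2 3 held 57.1 CPM, within the siControl range in CPM, a placing that its low pseudogene share makes uncertain. Over the 5 libraries the log2 difference in Mmp19 was 0.08 (edgeR adjusted p = 0.684, SE 0.10), and over all 6 it was 0.02 (edgeR adjusted p = 0.964, SE 0.09). Exons of Mmp19 overlap those of Tmem198b on the opposite strand over 789 bases (22.3% of its exonic length), and Tmem198b had 359 to 415 counts in the 5 libraries, so part of the Mmp19 reads could be uncertain.

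**Figure D2:**
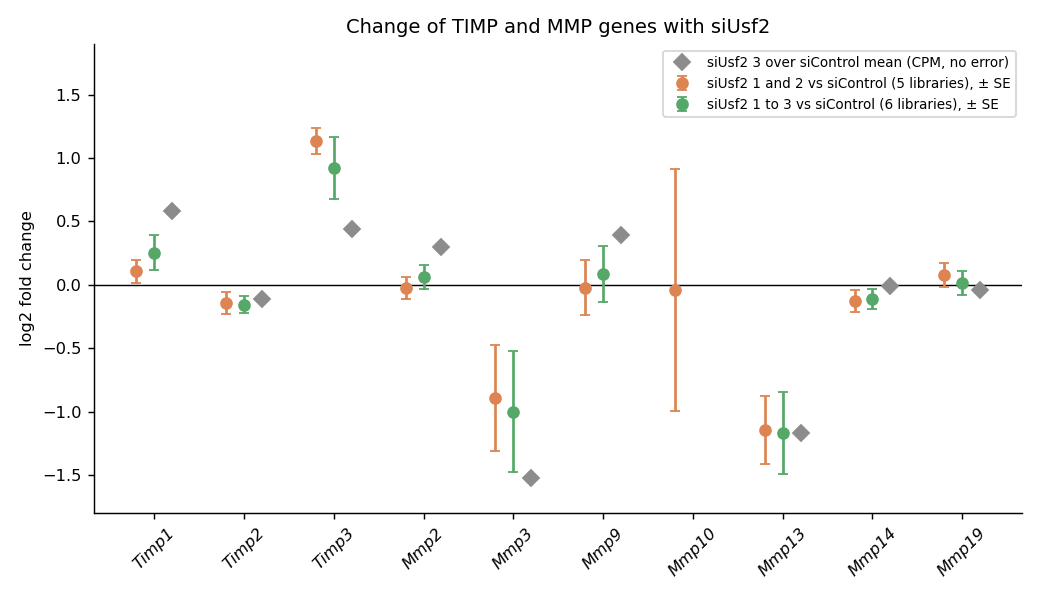
Log2 fold change of siUsf2 against siControl for the 10 genes from the 5 libraries (orange, ± SE) and from all 6 (green, ± SE), with the library labelled siUsf2 3 over the siControl mean as grey diamonds without error. Timp3 is at 1.13 and 0.92 and Mmp13 at -1.15 and -1.17 in the 2 comparisons, while Timp2, Mmp14 and Mmp19 stay near 0; Mmp10 has a value for the 5 libraries only.

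By count, 1 of 10 members rose and 1 fell in the 5 libraries, with 8 not passing. Of the 17217 genes tested there, 4.97% rose, 6.4% fell and 11.4% changed in either direction (855 higher and 1102 lower, or 1124 and 900 with upper-quartile scaling), so 1 gene in each direction is near that background for a list of 10. The median log2 fold change over the members was -0.03, against -0.01 over all genes tested. In 4 of the 10 members siUsf2 1 and 2 both lay outside the siControl range in CPM, against 41.3% of all genes tested. With all 6 libraries 9 members were tested and edgeR called none, against 0.042% of 16662 genes called, all of them lower, and 1753 genes at an unadjusted p below 0.05. Of those 9, Timp3 and Mmp13 had unadjusted p below 0.05 (0.0105 and 0.0127), and DESeq2 called Timp3 alone (adjusted p = 0.0488; Mmp13 adjusted p = 0.0503).

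Levels were compared between genes per length, as CPM per kb of exon. In siControl, Mmp2 was highest at 503 ± 12.2 CPM per kb and Timp2 followed at 359 ± 10.1 (SD, n = 3 each). Timp1 at 114 ± 9.23 and Mmp14 at 111 ± 8.52 came next and did not differ beyond their spread. Mmp19 was at 16.7 ± 0.676, Timp3 at 8.73 ± 1.24 and Mmp13 at 2.96 ± 0.931 CPM per kb. Mmp9 at 1.89 ± 0.282 and Mmp3 at 1.40 ± 0.580 overlapped, and Mmp10 was lowest at 0.229 ± 0.210. Mmp2 with its activation partners Timp2 and Mmp14, and Timp1, thus held the upper places in the control cells.

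In siUsf2 1 and 2 the order of the means changed at 2 places. Timp3, at a mean of 19.3 CPM per kb, passed Mmp19 at 17.7, and Mmp13, at 1.35, fell below Mmp9 at 1.88. The lengths join all annotated exons, and exons of Timp3 and of Mmp19 overlap those of a gene on the opposite strand. The small difference between Timp3 and Mmp19 is therefore uncertain. In siUsf2 1, Mmp13 and Mmp9 were close, at 1.66 and 1.71 CPM per kb. In the library labelled siUsf2 3, Timp3 was at 11.8 CPM per kb, below Mmp19 at 16.2, and Mmp13 at 1.31 was below Mmp9 at 2.48.

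**Figure D3:**
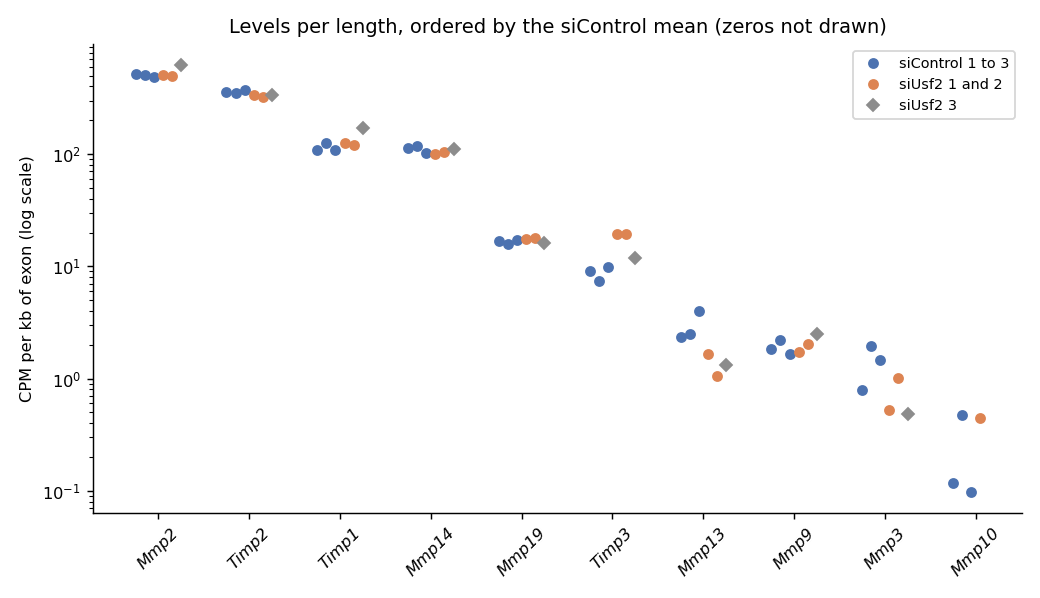
Level per length (CPM per kb of exon, log scale) of the 10 genes in each library, ordered by the siControl mean, with siControl in blue, siUsf2 1 and 2 in orange and the library labelled siUsf2 3 as grey diamonds; libraries at 0 are not drawn. The levels run from 503 CPM per kb for Mmp2 to 0.229 for Mmp10 in siControl, and Timp3 moves from 8.73 to 19.3 in siUsf2 1 and 2.

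As a share of the 3 inhibitors' summed level per length, Timp3 went from 1.89%, 1.53% and 2.01% in siControl 1 to 3 to 4.03% and 4.18% in siUsf2 1 and 2, with 2.29% in the library labelled siUsf2 3. Timp2 made up 72.6% to 75.7% of that sum in siControl and 69.6% and 69.8% in siUsf2 1 and 2. Timp3 thus remained the smallest of the 3 transcripts. The summed inhibitor level was 477 to 488 CPM per kb in siControl, against 479 and 464 in siUsf2 1 and 2, and the summed level of the 7 enzymes was 615 to 647 in the first group and 627 and 617 in the second. The ratio of the first sum to the second was 0.737 to 0.793 in siControl, and 0.764 and 0.752 in siUsf2 1 and 2 fell in that range. It was 0.689 in the library labelled siUsf2 3, where the inhibitors summed to 516 and the enzymes to 748 CPM per kb.

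Other genes of matrix proteolysis were counted in 8 lists. The lists were chosen with earlier results of these data known. The shares here and per list below are thus a description and no independent support for a shared change. Of 94 listed genes 68 were tested in the 5 libraries, of which 16 (23.5%) rose and 2 (2.94%) fell, with a median log2 fold change of 0.17, against 4.97% and 6.4% of all genes tested. The counts moved with single libraries, to 7 higher and 2 lower without siUsf2 1, 8 and 1 without siUsf2 2, 12 and 1 without siControl 1, and 21 and 7 without siControl 3. Calls over all genes moved with them, from 855 higher and 1102 lower to 349 and 519, 477 and 694, 469 and 586, and 1596 and 1964 in the same order. Of the 18 called, 5 (among them Mmp15, Mmp28, Adamts12 and Vcan) were called in every setting run at the same threshold and with each of the 5 libraries left out, while 13 lost their call in at least 1 of those. With all 6 libraries edgeR called none of the 68, and DESeq2 called 6 higher and 2 lower, against 296 higher and 410 lower of all 16662 genes by DESeq2. In the library labelled siUsf2 3 the median over the lists was 0.30 against siControl, beside its lower depth and pseudogene share, whose part in that value was not tested.

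Among 16 other MMPs, 6 were tested and 1 rose, 1 fell and 4 did not pass, against 4.97% higher and 6.4% lower over all genes tested. Mmp15, a membrane-type enzyme related to Mmp14, was at 54.9, 59.7 and 49.1 CPM in siControl 1 to 3 and 23.4 and 23.6 CPM in siUsf2 1 and 2. The 2 groups were well apart, at -1.23 on the log2 scale (edgeR adjusted p = 3.36e-09, SE 0.11), and its level in the library labelled siUsf2 3, 30.8 CPM, was under the siControl range too. Mmp28 (epilysin) was at 34.1, 27.0 and 30.7 CPM in siControl and 44.95 and 45.3 CPM in siUsf2 1 and 2, with a log2 fold change of 0.55 (edgeR adjusted p = 0.00135, SE 0.11). The library labelled siUsf2 3 was above siControl too, at 40.7 CPM, a placing that its low pseudogene share makes uncertain. Of 6 genes placed in the list of other inhibitors, by family and not by a shown activity of each, 3 were tested and none passed by edgeR. The smallest p was that of Spock2, a testican proteoglycan (unadjusted p = 0.00652), with a difference of 0.29 on the log2 scale (edgeR adjusted p = 0.0545, SE 0.10; 0.0273 with upper-quartile scaling and 0.466 without siUsf2 2). DESeq2 called none of the 3 either (adjusted p = 0.0740 for Spock2).

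In the plasminogen system, which generates the protease plasmin that can activate MMP precursors, 4 of 7 tested genes rose and none fell. Over all genes tested in the 5 libraries, 4.97% rose and 6.4% fell. Plaur, the urokinase receptor, showed a log2 rise of 0.52 (edgeR adjusted p = 0.00575, SE 0.13; 0.151 without siUsf2 1), and Plat, tissue plasminogen activator, by 0.42 (edgeR adjusted p = 0.00784, SE 0.11; 0.0576 without siUsf2 1 and 0.0998 without siUsf2 2). Plau, urokinase, was also called, and its call ended without siControl 1, siUsf2 1 or siUsf2 2 (edgeR adjusted p = 0.132, 0.128 and 0.282). Both activators and the receptor were thus called higher in these 5 libraries, but each of these calls ended when at least 1 library was left out.

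Among 9 tested ADAMs, membrane proteases and adhesion proteins, Adam23 showed a log2 rise of 0.77 (edgeR adjusted p = 0.0149, SE 0.21; 0.139 without siUsf2 1) and 8 did not pass. Of 12 tested ADAMTS genes, secreted proteases of the matrix, 2 rose and 1 fell. The shares over all genes tested were 4.97% higher and 6.4% lower, for comparison with both lists. Adamts12 rose by 0.79 (edgeR adjusted p = 9.17e-04, SE 0.16), from 10.2 to 13.7 CPM in siControl to 20.04 and 20.2 CPM in siUsf2 1 and 2, while the library labelled siUsf2 3 held 13.8 CPM. Adamts5, an aggrecanase, rose by 0.34 (edgeR adjusted p = 0.0179, SE 0.09), a call that ended without siControl 1, siControl 2 or siUsf2 2 (adjusted p = 0.0821, 0.0919 and 0.233). Adamts1 fell by 0.37 (edgeR adjusted p = 0.0158, SE 0.10), and its call ended without siControl 1, siUsf2 1 or siUsf2 2 (adjusted p = 0.0790, 0.0773 and 0.203).

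Of 7 tested surface partners, Nrg1 and Itgb3 rose and 5 did not pass, where 4.97% of all genes tested rose. Nrg1, an ErbB ligand that is shed from the membrane, rose by 0.46 (edgeR adjusted p = 0.00583, SE 0.11; 0.0529 without siControl 1 and 0.0752 without siUsf2 2). Itgb3, an integrin subunit, rose by 0.29 (edgeR adjusted p = 0.0338, SE 0.09; 0.123 without siControl 1, 0.190 without siUsf2 1 and 0.258 without siUsf2 2). Of 11 AP-1 and ETS factors, families that are known to act on MMP promoters, Ets1 rose by 0.41 (edgeR adjusted p = 0.00337, SE 0.09; 0.180 without siUsf2 1) and 10 did not pass. In the library labelled siUsf2 3, Ets1 stood at 73.2 CPM, under the siControl range of 75.8 to 81.6 CPM.

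Of 13 tested MMP substrates 5 rose and none fell, against 4.97% higher and 6.4% lower over all genes tested. Vcan, the proteoglycan versican, rose by 0.52 (edgeR adjusted p = 0.00438, SE 0.11). In the library labelled siUsf2 3, however, it stood at 417 CPM, within the siControl range of 364 to 517 CPM. The low pseudogene share of that library makes this placing uncertain. Lamc1, a laminin chain, rose by 0.36 (edgeR adjusted p = 0.00492, SE 0.08; 0.0998 without siUsf2 1). Col1a1, a chain of fibrillar collagen, rose by 0.33 (edgeR adjusted p = 0.0106, SE 0.09; 0.176 without siUsf2 2), and stood at 904 CPM in the library labelled siUsf2 3 against 226 to 325 CPM in the other 5. Fn1, fibronectin, and Lama5, a laminin chain, were the other substrates called, and each lost its call without siControl 2, siUsf2 1 or siUsf2 2.

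**Figure D4:**
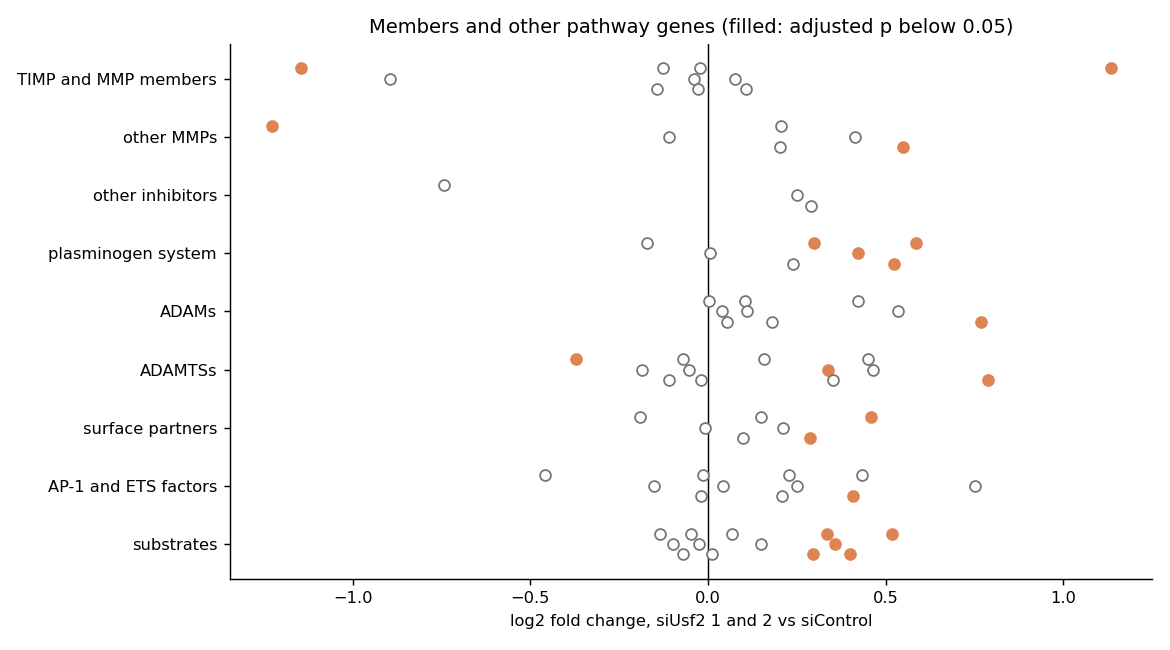
Log2 fold change of siUsf2 1 and 2 against siControl 1 to 3 for the 10 TIMP and MMP genes and the tested genes of 8 other lists, 1 point per gene, filled where the edgeR adjusted p was below 0.05. Filled points lie mostly to the right of 0 (16 higher, 2 lower outside the 10 members), with Mmp15 at -1.23 the lowest of the listed genes and Timp3 at 1.13 the highest of all shown. The lists were chosen with earlier results of these data known.

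Among the 5 genes whose levels followed Timp3 most closely over the 6 libraries, leaving out genes with a mean log2 CPM under 3 and predicted gene models, were Fubp1, a single-stranded DNA-binding regulator of Myc (Pearson r of log2 CPM = 0.999), Chaf1a, a chromatin assembly subunit (0.995), Caprin2 (0.995), and Mastl, a mitotic kinase (0.992). All 6 points of each pair share their libraries, so this is a description with no test. The genes were picked as the highest correlations among all genes kept, so high values over 6 libraries follow from the choice. Fubp1 was at 89.5 to 101 CPM in siControl, 132 and 132 CPM in siUsf2 1 and 2, and 113 CPM in the library labelled siUsf2 3. In CPM that library lay between the groups for Fubp1 as for Timp3, a placing that its low pseudogene share makes uncertain. The rise of Fubp1 in the 5 libraries was smaller, 1.37-fold against 2.19-fold for Timp3.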

How the data were processed

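The authors deposited whole-number read counts per Ensembl gene identifier, not normalized, with 1 column per library. Per the submitters' processing notes the build was mm10 and the tools included HISAT2 and featureCounts. Of the counting, strand setting and gene models are not stated in the sources used here. The other table, named for TPM, holds these counts scaled to a total of 1000000 and was left out.

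Symbols, coordinates and exonic lengths came from GENCODE M21 (GRCm38, also called mm10); 52133 of 55414 identifiers matched. Counts were tested with edgeR 4.0.16 (R 4.3.3): filterByExpr, TMM, robust quasi-likelihood test, two-sided, Benjamini-Hochberg over all genes tested, called at adjusted p below 0.05. SE is the log2 fold change over the square root of F. Poisson intervals (95%) and the limit of 3 counts for a 0 cover counting error only. Pseudogene transcripts were aligned to the members' transcripts with minimap2 2.31 (at least 90% identity, 50% coverage, 150 bases). Protein sequences were not used here, so the description of protein motifs that had been planned was not run. Alternatives (scaling, filter, DESeq2, limma-voom, replicate block, threshold, libraries left out) are given at the end.

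Named genes are the members, up to 3 called genes per list by p (else the smallest p), Usf2, and the 5 genes most correlated with the member of smallest p; others were named after their values were seen. A gene of the plasminogen list and a gene correlated with Timp3 are not reported here. The members and lists were chosen with earlier results of these data known.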

Additional observations from a re-analysis of the deposited data

How the results depend on the processing

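Alternatives were RLE, upper-quartile or total-count scaling, 2 other filters on low counts, DESeq2 1.42.0, limma-voom (limma 3.58.1), the test without robust estimation, a replicate block, a threshold of 0.01, and each library left out. In the 5 libraries Timp3 was called in every one, at log2 fold changes of 1.02 to 1.24 (highest adjusted p 5.17e-06), and Mmp13 in all but the one without siUsf2 2 (-1.50 to -0.84 with 1 library left out). With 1 library left out, 1 member was higher in each case and 0 to 1 lower in the 5 libraries, and 0 to 1 higher and 0 to 1 lower starting from 6; list calls were 7 to 21 higher and 1 to 7 lower, and 0 to 16 and 0 to 2. The member calls starting from 6 appeared only without the library labelled siUsf2 3. The cause of each change was not tested.

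No pairing by replicate number was seen: deviations of same-numbered libraries correlated at -0.074, -0.0049 and -0.073 over 3 pairs. With siControl 1, however, siUsf2 1 and 2 gave nearly the same value (-0.074 and -0.071) and the library labelled siUsf2 3 the opposite (0.074). The deviations thus mostly set that library apart, and the check could not decide whether replicates 1 and 2 were paired. With a replicate block in the 5 libraries 2 members were lower (Mmp14 joined, log2 fold change -0.18, adjusted p = 0.0452), list calls were 21 higher and 8 lower, and all genes called went from 855 to 1719 higher and from 1102 to 2270 lower; with all 6 no member was called. In the 5 libraries siControl 3 has no partner, so the block also removes it from the comparison, and leaving it out with no block gave 1596 higher and 1964 lower (Mmp14 -0.18, adjusted p = 0.0906). At a threshold of 0.01 list calls in the 5 libraries were 9 higher and 1 lower. With all 6 libraries, DESeq2 called 1 member higher and 6 list genes higher and 2 lower, and limma-voom and the fit without a filter 1 list gene lower each. Upper-quartile scaling moved the split over all genes in the 5 libraries to 1124 higher and 900 lower.

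Signs turned for members close to 0. With upper-quartile scaling Mmp2, Mmp9 and Mmp10 were at 0.011, 0.015 and 0.0031 in the 5 libraries, and without a filter Mmp19 was at -0.010 in the 6. With 1 library left out, Mmp9 ranged from -0.17 to 0.11 and Mmp10 from -5.67 to 0.91 (5 libraries), and Mmp19 from -0.022 to 0.075, Mmp2 from -0.027 to 0.11 and Mmp9 from -0.023 to 0.21 (6 libraries). Depth limits Mmp3, Mmp9, Mmp10 and Mmp13, above all in the library labelled siUsf2 3.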
